A study of Mus musculus with 4 samples.

Results

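The nuclear genes of the respiratory chain were followed in D2.OR cells with and without expression of BORG, a long non-coding RNA. The genes were taken by name: every gene of the deposited table whose symbol begins with Nduf (complex I), is Sdha, Sdhb, Sdhc or Sdhd (complex II), begins with Uqcr (complex III), with Cox4 to Cox8 (complex IV) or with Atp5 (complex V), leaving out pseudogenes marked -ps. This gave 97 genes of the 48432 identifiers in the table: 47 of complex I, 4 of complex II, 8 of complex III, 21 of complex IV and 17 of complex V. The annotation lists 93 of them as protein coding and 4 as processed pseudogenes (Ndufa11b, Ndufb4c, Ndufs6b and Cox6c2). Of the 97, 86 had enough fragments to be tested and 11 did not.

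The respiratory chain sits in the inner mitochondrial membrane. Complex I takes electrons from NADH and complex II takes them from succinate, ubiquinone carries them to complex III, cytochrome c carries them on to complex IV, and oxygen receives them there. Complexes I, III and IV pump protons as electrons pass, and complex V, the ATP synthase, lets the protons back and makes ATP. Each complex other than complex II mixes subunits encoded in mitochondrial DNA with subunits encoded in the nucleus, and dedicated assembly factors put them together.

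D2.OR is a mouse mammary line, labelled as coming from pre-malignant hyperplastic alveolar cells, that is used as a model of tumour cell dormancy. All 4 cultures were kept for 7 days in 3D culture with Cultrex, a basement membrane extract, and total RNA was sequenced from 2 parental and 2 BORG-expressing libraries. The labels give the cells only as parental or BORG-expressing, and say neither how BORG was introduced nor whether a line is a clone. The table itself names the control condition Empty, which may stand for an empty vector. Whether the control cells carried one is not given, and if they did not, an effect of the vector and an effect of BORG cannot be told apart. The design text calls the libraries biological duplicates without saying whether they were grown on separate days, so every p-value here reflects how far these libraries vary, which may be technical. Gene-assigned fragments came to 24176451 and 30322681 in parental replicates 1 and 2 and to 7900769 and 27131659 in BORG-expressing replicates 1 and 2, so BORG-expressing replicate 1 is the shallow library. The luminal keratins Krt8 (261 to 439 FPKM) and Krt18 (388 to 712 FPKM) were high in every library, where FPKM is fragments per kilobase of transcript, scaled to library depth. Other epithelial markers, Epcam, Cdh1, Krt7 and Krt19, lay between 0.0218 and 2.58 FPKM, so the epithelial label rests on keratins. Basal markers were at or near 0 apart from Krt14, so their summed level was 123 to 138 FPKM in parental and 279 to 483 FPKM in BORG-expressing cells, and fibroblast markers summed to 104 to 109 and 78.0 to 95.1 FPKM, nearly all Pdgfra and Col1a1. Adipocyte markers, nearly all Fabp4, summed to 6.19 to 8.41 FPKM in parental and 4.06 to 4.25 FPKM in BORG-expressing cells. Endothelial markers summed to at least 1.40 FPKM in each parental library and at most 0.638 FPKM in each BORG-expressing library. Leukocyte and skeletal muscle markers were at most 0.249 FPKM in any library. The part of such differences in cell state in the results below was not tested.

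**Figure D1:**
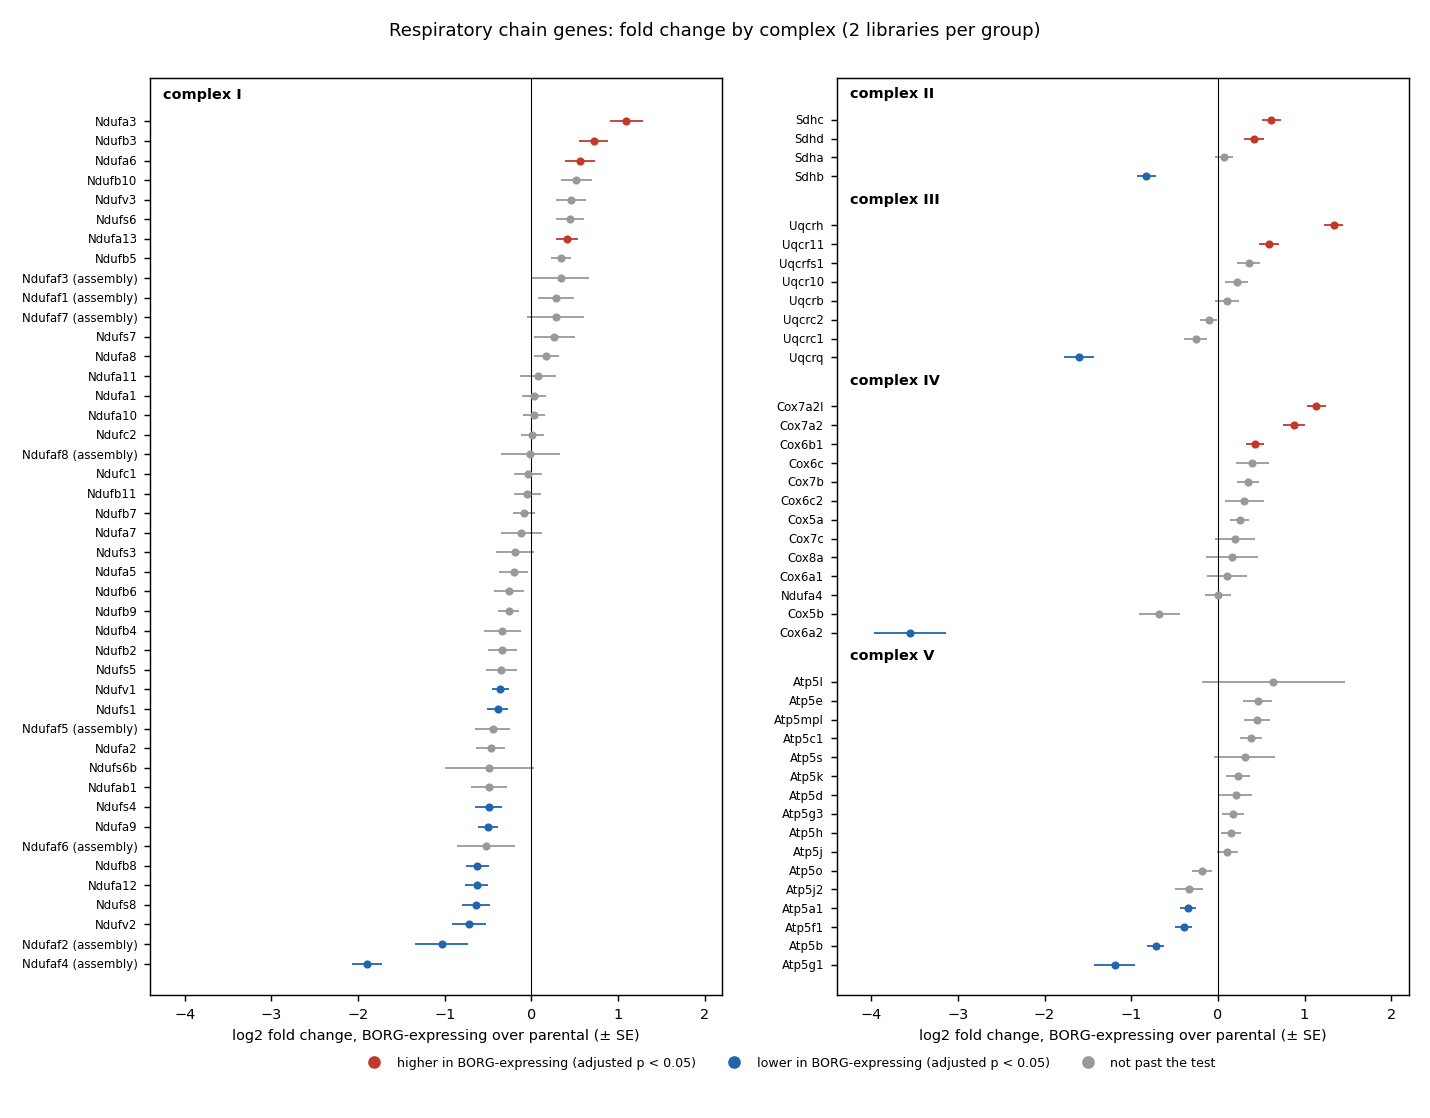
Log2 fold change (BORG-expressing over parental, ± SE) of respiratory chain genes tested, grouped by complex and ordered by value, with 2 libraries per group. Red (higher) and blue (lower) points passed the test and grey points did not. Within each of the complexes, genes lie on both sides of 0.

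Respiratory chain genes did not move as a block. Of the 86 tested, 11 rose and 18 fell in BORG-expressing cells at an adjusted p of 0.05 (edgeR quasi-likelihood test, Benjamini-Hochberg over 15116 genes), and 57 did not pass. In these bulk libraries a change in the mix of cells and a change in RNA per cell cannot be told apart. Of the 86, 12.8% were higher and 20.9% lower, beside 19.9% and 21.3% of all genes tested, and 33.7% in either direction beside 41.1%. The median log2 fold change of the 86 genes was 0.03, against 0.02 over all genes. The changes were small: the median absolute log2 fold change was 0.35 against 0.53 over all genes. With at least a 2-fold change 8 genes (9.30%) passed, against 19.6% of all genes. This background was not matched for level: a mean of at least 5 FPKM was reached by 78 members and by 8918 genes. The CPM (fragments scaled to library size) of the 2 groups did not overlap for 63 of the 86 genes, or 73.3%, beside 72.6% of all genes tested. The genes that rose at least 2-fold were Uqcrh, Cox7a2l and Ndufa3. Those that fell at least 2-fold were Cox6a2, Ndufaf4, Uqcrq, Atp5g1 and Ndufaf2.

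Most calls depended on the fit. Cox6a2, Cox7a2, Cox7a2l, Ndufa3, Ndufaf4, Uqcrh and Uqcrq, 7 of the 29 genes called, passed in every alternative fit that tested them, which for Cox6a2 leaves out the fit to genes with a mean of at least 5 FPKM. None of the 29 changed direction in any of these fits. Of the genes with at least a 2-fold change, Ndufaf2 kept its call in 8 of 13 alternative fits and Atp5g1 in 10 of 12. With quantile normalization and limma 19 members were higher and 15 lower (22.1% and 17.4%), beside 21.7% and 21.3% of all genes. With a correction for GC content and transcript length 20 were higher and 21 lower (23.3% and 24.4%), beside 25.2% and 26.1%. Among genes with a mean of at least 5 FPKM 17 were higher and 14 lower (21.8% and 17.9%), beside 23.2% and 24.5%. The median log2 fold change of members was 0.01 without parental replicate 1 and -0.09 without parental replicate 2. Over all genes it was 0.02 and 0.005. Without the shallow BORG-expressing replicate 1 it was 0.06 for members and 0.02 over all genes. Without BORG-expressing replicate 2 it was -0.13 and -0.04.

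**Figure D2:**
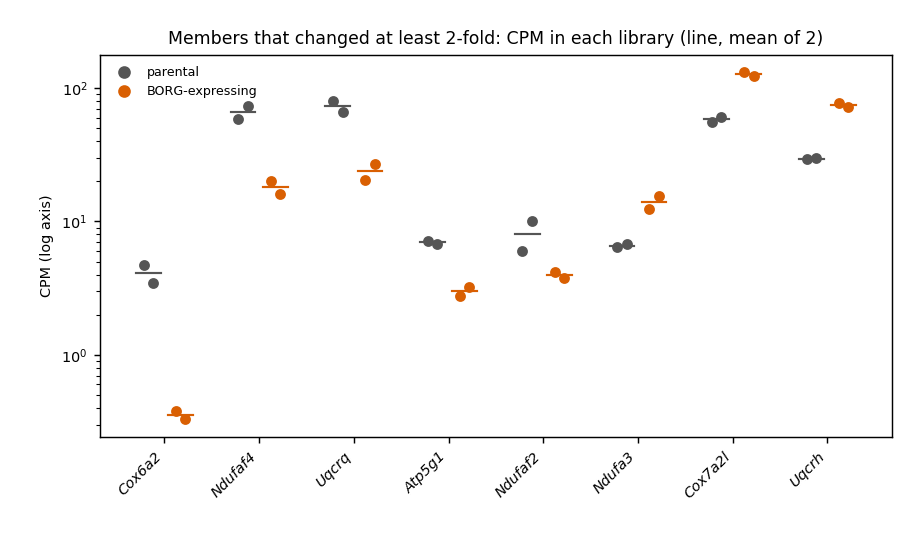
CPM in each library (log axis, dots) and the mean of 2 libraries (line) for the 8 respiratory chain genes that passed the test with at least a 2-fold change. In each gene the 2 BORG-expressing libraries lie wholly above or wholly below the 2 parental ones, which the choice of these genes makes likely. The groups did not overlap for 72.6% of all genes tested. Cox6a2 is lowest at 0.328 CPM and Cox7a2l highest at 132 CPM.

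Members differed in transcript length between the directions. The longest protein-coding transcript had a median length of 659 nt among the genes that rose, 1642 nt among those that fell and 838 nt among those that did not pass, against 2795 nt over all genes tested. In the BORG-expressing group the FPKM of members were higher in replicate 1 than in replicate 2 by a median of 0.27 on the log2(FPKM + 1) scale, against 0.07 over all genes, whereas their CPM differed by -0.07 on the log2(CPM + 1) scale. The part of depth and transcript length in the differences between groups was not tested beyond the correction above. Fold changes below come from counts, and FPKM is used for levels.

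Much of what is known of respiratory chain promoters concerns nuclear respiratory factor 1 (NRF1) and the ETS-type factor GABP, also called NRF2. The RefSeq promoter table for GRCm38.p6 holds 74 of the 97 genes, and the 250 bases before each start were searched on both strands. The NRF1 core GCATGCGC was present in 9 of the 74 (12.2%), against 2.56% of all 27025 genes in the table. An ETS motif, CCGGAAG, was present in 14 (18.9%), against 7.83%. The E-box CACGTG was present in 5 (6.76%), against 6.86%, and the estrogen-related receptor motif TNAAGGTCA in 2 (2.70%), against 1.30%. None of these motifs is contained in another of them. The 27025 genes were not limited to those expressed here. No difference in motif shares, from all genes or by direction, was tested. By direction, the ETS motif was in 4 of the 10 matched genes that rose (Sdhd, Uqcr11, Uqcrh and Cox6b1), in 0 of the 12 matched genes that fell and in 10 of the 47 that did not pass. The NRF1 core was in 1 of the 10 that rose (Ndufa6), 2 of the 12 that fell (Ndufaf4 and Sdhb) and 5 of the 47.

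The sequences are the 250 bases before the start of the 2 genes that fell and carry the NRF1 core, and of the 2 genes of complex III that rose and carry the ETS motif, so that both motifs are seen in genes that passed the test. Capitals mark these motifs on either strand. The starts are those of RefSeq. GENCODE M21 starts Sdhb at 140961203, within its window, and the NRF1 match lies past that start, inside the annotated gene. The Ndufaf4 window (chr4:24897833-24898082, plus strand) holds 2 overlapping matches, one on each strand, and the Sdhb window (chr4:140961021-140961270, plus strand) holds 1. The Uqcrh window (chr4:116075071-116075320, minus strand) and the Uqcr11 window (chr10:80406822-80407071, minus strand) hold 1 ETS match each.
Ndufaf4: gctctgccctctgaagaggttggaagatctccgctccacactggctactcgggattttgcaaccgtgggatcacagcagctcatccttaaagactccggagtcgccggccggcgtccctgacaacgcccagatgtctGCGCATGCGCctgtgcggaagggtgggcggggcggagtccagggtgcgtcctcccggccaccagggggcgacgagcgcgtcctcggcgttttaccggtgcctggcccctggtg
Sdhb: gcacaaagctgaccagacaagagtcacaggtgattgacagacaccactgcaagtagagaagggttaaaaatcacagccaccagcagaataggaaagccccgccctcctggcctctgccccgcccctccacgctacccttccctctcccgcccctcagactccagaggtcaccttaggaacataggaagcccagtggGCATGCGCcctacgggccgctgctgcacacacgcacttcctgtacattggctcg
Uqcrh: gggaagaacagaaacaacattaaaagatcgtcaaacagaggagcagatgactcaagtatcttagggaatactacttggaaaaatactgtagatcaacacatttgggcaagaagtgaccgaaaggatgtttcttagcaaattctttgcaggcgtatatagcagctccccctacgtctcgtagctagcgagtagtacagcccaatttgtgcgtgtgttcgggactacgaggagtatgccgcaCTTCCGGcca
Uqcr11: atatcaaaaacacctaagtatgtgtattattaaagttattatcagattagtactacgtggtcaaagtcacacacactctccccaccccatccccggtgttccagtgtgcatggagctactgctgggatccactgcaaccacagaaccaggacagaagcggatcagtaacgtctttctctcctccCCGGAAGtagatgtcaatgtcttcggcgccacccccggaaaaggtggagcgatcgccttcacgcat

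In complex I, 4 of 45 tested genes rose (8.89%) and 11 fell (24.4%), with a median log2 fold change of -0.19. Beside 19.9% and 21.3% of all genes tested, the share of lower calls was near that of all genes and the share of higher calls was below it. The 29 accessory subunits had 4 higher and 4 lower calls with a median of -0.05, and the 8 assembly factors had 0 higher and 2 lower with a median of -0.23. Among assembly factors 0 genes were higher at an unadjusted p of 0.05 in edgeR or with DESeq2.

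All 3 core subunits of the module that oxidises NADH, which carry redox centres, fell, and 21.3% of all genes tested were lower. Ndufv2, an iron-sulfur subunit, had 68.3 and 56.0 CPM in the parental libraries and 30.7 and 43.8 in the BORG-expressing ones, a log2 fold change of -0.72 ± 0.19 (SE, n = 2 per group, edgeR adjusted p = 0.0265). Ndufs1, the largest iron-sulfur subunit, had 90.7 and 99.9 against 77.1 and 68.6 CPM (-0.39 ± 0.12, edgeR adjusted p = 0.0396). Ndufv1, which binds NADH and FMN, had 85.1 and 83.5 against 65.7 and 65.9 CPM (-0.36 ± 0.10, edgeR adjusted p = 0.0308). Every BORG-expressing CPM of these 3 genes lay below both parental values, while the groups did not overlap for 72.6% of all genes tested. For Ndufv1 the FPKM of the groups overlapped (42.0 and 38.7 against 43.4 and 26.6). The call was kept in 10 of 13 alternative fits for Ndufv2, in 5 for Ndufs1 and in 4 for Ndufv1. Both limma fits on FPKM called 0 of the 7 core subunits of complex I. In the module that reduces ubiquinone, Ndufs8 had 37.1 and 32.4 against 19.6 and 24.6 CPM (-0.64 ± 0.16, edgeR adjusted p = 0.0211). Ndufs3 (-0.19 ± 0.22) and Ndufs7 (0.26 ± 0.24) of that module did not pass, and their groups overlapped.

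Accessory subunits went both ways. Ndufa3, of the proximal membrane arm, rose from 6.39 and 6.80 to 12.4 and 15.6 CPM, a log2 fold change of 1.10 ± 0.19 (edgeR adjusted p = 0.00589). Ndufb3, of the distal membrane arm, rose from 9.67 and 11.7 to 18.3 and 16.9 CPM (0.72 ± 0.17, edgeR adjusted p = 0.0170). Ndufa6, an LYR-motif protein of the matrix arm, had 49.1 and 34.6 against 59.8 and 63.3 CPM (0.56 ± 0.18, edgeR adjusted p = 0.0462). The groups did not overlap in any of these, as for 72.6% of all genes tested, and the parental libraries of Ndufa6 lay far apart. Ndufa13, also known as GRIM-19, was the smallest rise at 0.41 ± 0.12 (26.9 and 28.7 against 38.9 and 35.3 CPM, edgeR adjusted p = 0.0392). Its FPKM overlapped between the groups (21.8 and 21.3 against 49.5 and 21.3), its call was kept in 3 of 13 alternative fits, and it overlaps Yjefn3 on the same strand.

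Ndufa12, an accessory subunit at the matrix arm, fell from 38.8 and 45.4 to 26.8 and 27.5 CPM (-0.63 ± 0.13, edgeR adjusted p = 0.0109). Ndufb8, of the distal membrane arm, fell from 92.3 and 79.8 to 50.6 and 60.5 CPM (-0.62 ± 0.14, edgeR adjusted p = 0.0132). Ndufa9 and Ndufs4, of the matrix arm, each fell by 0.50 on the log2 scale (edgeR adjusted p = 0.0145 and 0.0444). Of the 9 accessory genes of the matrix arm 3 fell and 1 rose, of the 9 of the proximal membrane arm 0 fell and 2 rose, and of the 10 of the distal membrane arm 1 fell and 1 rose. Of all genes 21.3% were lower and 19.9% higher, and no difference between the arms was tested. Ndufab1, the mitochondrial acyl carrier protein, did not pass (-0.49 ± 0.21).

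The largest change in complex I was in an assembly factor. Ndufaf4, which acts early in assembly, had 59.0 and 74.0 CPM in parental and 20.1 and 16.1 in BORG-expressing libraries, 3.73-fold lower (log2 fold change -1.90 ± 0.17, edgeR adjusted p = 0.000522). It lies on chromosome 4 at 24898083 to 24905001 (GRCm38, plus strand), overlaps no other gene and has no near-identical copy. Ndufaf2, a paralogue of Ndufa12 that acts late in assembly, had 6.05 and 10.0 against 4.17 and 3.75 CPM (-1.04 ± 0.30, edgeR adjusted p = 0.0360). The other 6 factors did not pass and ranged from -0.52 (Ndufaf6) to 0.34 (Ndufaf3).

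Leaving out 1 library ended several of these complex I calls. Without parental replicate 1 this held for Ndufs1 (-0.51), Ndufv1 (-0.39), Ndufs8 (-0.59), Ndufa9 (-0.54), Ndufs4 (-0.51), Ndufb3 (0.54) and Ndufa13 (0.32). Without parental replicate 2 it held for Ndufs1 (-0.33), Ndufv1 (-0.39), Ndufa12 (-0.53), Ndufa9 (-0.52), Ndufs4 (-0.54), Ndufaf2 (-0.63), Ndufa6 (0.31) and Ndufa13 (0.44). Without BORG-expressing replicate 1 it held for Ndufv1 (-0.36) and Ndufa13 (0.34), and without BORG-expressing replicate 2 for Ndufs1 (-0.30), Ndufv1 (-0.36), Ndufs4 (-0.31), Ndufaf2 (-0.95) and Ndufa6 (0.52).

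Complex II, succinate dehydrogenase, has 4 subunits, all encoded in the nucleus, and also serves the TCA cycle. Sdhb, the iron-sulfur subunit, fell from 109 and 101 to 58.2 and 60.6 CPM, a log2 fold change of -0.82 ± 0.11 (edgeR adjusted p = 0.00193). The membrane anchors rose. Sdhc went from 34.4 and 34.2 to 50.8 and 54.2 CPM (0.62 ± 0.11, edgeR adjusted p = 0.00617) and Sdhd from 57.8 and 60.8 to 84.8 and 74.4 CPM (0.42 ± 0.12, edgeR adjusted p = 0.0286). Sdha, the flavoprotein that oxidises succinate, had 96.7 and 101 against 104 and 103 CPM (0.07 ± 0.10, edgeR adjusted p = 0.637). The CPM of the 2 groups did not overlap for any of the 4 genes, as for 72.6% of all genes tested, but the FPKM of Sdha did (28.9 and 31.1 against 31.5 and 30.1). Per transcript length, parental cells had most Sdhb (75.6 ± 4.40 FPKM, SD, n = 2), then Sdhd (46.9 ± 4.39), Sdha (30.0 ± 1.59) and Sdhc (22.1 ± 2.52). In BORG-expressing cells the order of the means was Sdhd (63.5 ± 14.3 FPKM), Sdhb (46.7 ± 12.2), Sdhc (34.0 ± 1.45) and Sdha (30.8 ± 0.977). The spreads of Sdhd and Sdhb overlapped, but Sdhd lay above Sdhb within each BORG-expressing library (73.6 against 55.3 and 53.4 against 38.1 FPKM). This order was not tested. The call of Sdhd was lost without parental replicate 1 (0.34), without parental replicate 2 (0.44) and without BORG-expressing replicate 1 (0.32).

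**Figure D3:**
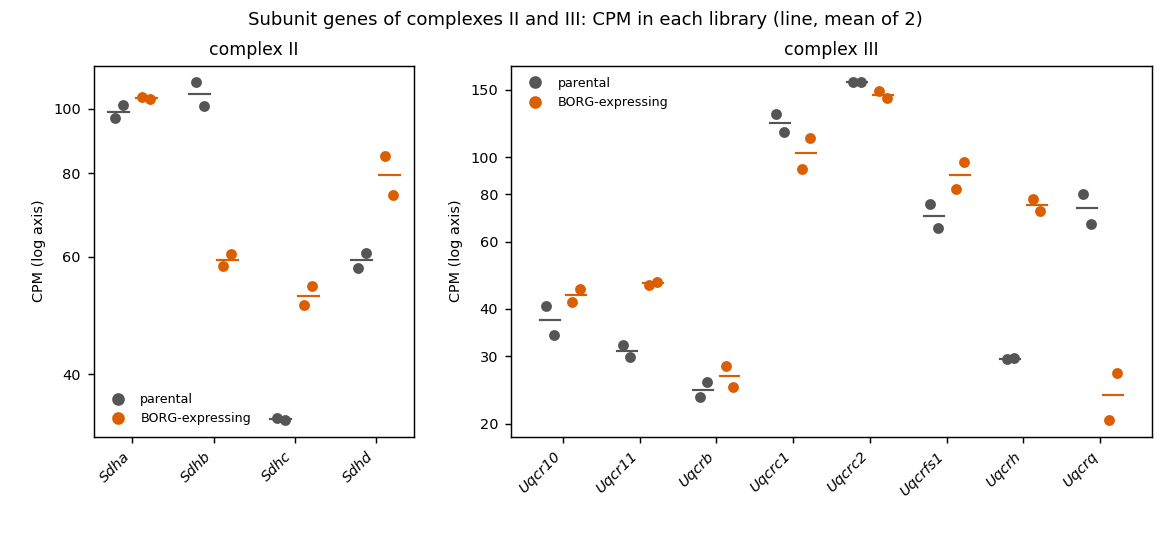
CPM in each library (log axis, dots) and the mean of 2 libraries (line) for the 4 genes of complex II and the 8 genes of complex III. Sdhb and Uqcrq are lower and Sdhc, Sdhd, Uqcr11 and Uqcrh higher in both BORG-expressing libraries than in both parental ones. The groups did not overlap for 72.6% of all genes tested. Uqcrh is at 29.5 and 29.7 CPM in the parental and 77.7 and 72.0 in the BORG-expressing libraries.

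Complex III held a strong rise and a strong fall among its small subunits. Uqcrh, the hinge protein that sits at cytochrome c1, rose from 29.5 and 29.7 to 77.7 and 72.0 CPM, 2.52-fold (log2 fold change 1.33 ± 0.11, edgeR adjusted p = 0.000353). Uqcrq, a small subunit next to cytochrome b, fell from 80.2 and 66.7 to 20.5 and 27.2 CPM, 3.03-fold (-1.60 ± 0.17, edgeR adjusted p = 0.000997). Uqcr11, another small subunit, rose from 32.2 and 29.9 to 46.2 and 47.1 CPM (0.59 ± 0.11, edgeR adjusted p = 0.00826), and this call was lost without parental replicate 2 (0.52), with the GC and length correction, alone or with the replicate block, and in both limma fits on FPKM. Per transcript length Uqcrq went from 165 ± 15.7 to 62.5 ± 9.71 FPKM (SD, n = 2) and Uqcrh from 49.2 ± 4.78 to 128 ± 17.2 FPKM, so the order of the 2 genes was reversed.

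The remaining 5 genes of complex III did not pass. Uqcrfs1, the Rieske iron-sulfur protein and the catalytic subunit among them, had 75.2 and 65.3 against 82.6 and 96.9 CPM (0.36 ± 0.13, edgeR adjusted p = 0.0733). The core proteins Uqcrc1 (-0.26 ± 0.13) and Uqcrc2 (-0.11 ± 0.10) and the small subunits Uqcrb (0.11 ± 0.14) and Uqcr10 (0.22 ± 0.13) lay closer to 0. Uqcrh, on chromosome 4 at 116066965 to 116075071 (GRCm38, minus strand), overlaps a predicted gene on the opposite strand, while Uqcrq, on chromosome 11 at 53427922 to 53430831 (minus strand), overlaps none.

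In complex IV, cytochrome c oxidase, 3 of 13 tested genes rose (23.1%) and 1 fell (7.69%), beside 19.9% and 21.3% of all genes, with a median log2 fold change of 0.25. Cox7a2l, a relative of the Cox7a subunits known for joining complexes III and IV into supercomplexes, rose from 55.9 and 60.4 to 132 and 124 CPM (1.14 ± 0.11, edgeR adjusted p = 0.000655). Cox7a2, the widely expressed Cox7a subunit, rose from 35.8 and 30.4 to 60.1 and 61.5 CPM (0.88 ± 0.12, edgeR adjusted p = 0.00259). Cox6b1, on the intermembrane side, rose from 58.6 and 54.8 to 74.9 and 78.0 CPM (0.43 ± 0.11, edgeR adjusted p = 0.0192), a call lost without parental replicate 1 (0.43) and without parental replicate 2 (0.37). Cox5b, which binds zinc, had 28.0 and 20.9 against 12.1 and 17.9 CPM and did not pass (-0.68 ± 0.24, edgeR adjusted p = 0.0623).

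Cox6a2, the heart and muscle isoform of Cox6a, fell from 4.71 and 3.47 to 0.379 and 0.328 CPM, 11.7-fold (log2 fold change -3.55 ± 0.42, edgeR adjusted p = 0.00134). The BORG-expressing values rest on 3 and 9 fragments, against 112 and 105 in the parental libraries. This gene lies on chromosome 7 at 128205435 to 128206387 (GRCm38, minus strand) and overlaps Itgad on the opposite strand. The muscle markers Myh1, Myh4, Ckm and Acta1 were at most 0.0496 FPKM. Its widely expressed partner Cox6a1 was far more abundant per transcript length, at 215 and 148 FPKM in parental and 262 and 181 in BORG-expressing libraries against 7.35 and 5.33, then 0.901 and 0.426, for Cox6a2, and it did not pass (0.10 ± 0.23).

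The other isoforms for particular tissues were listed near or at 0. Cox4i2, Cox6b2, Cox7b2, Cox8b and Cox8c were listed at 0 in all 4 libraries, Cox7a1 had 1 fragment in a single library of each group, and Ndufa4l2 had 0 to 5 fragments per library. Among their widely expressed partners, Cox8a had 87.5 and 67.9 against 58.7 and 113 CPM (0.16 ± 0.30). Cox7b had 57.9 and 53.0 against 76.6 and 64.6 CPM (0.34 ± 0.13). Ndufa4, a complex IV subunit despite its name, had 37.6 and 38.6 against 32.8 and 42.6 CPM (-0.003 ± 0.15). None of these 3 passed. Cox4i1, the partner of Cox4i2, was also listed at 0 in every library, as were 13 of 13 mitochondrial messenger RNAs. Mammalian cells make these RNAs in quantity, so a 0 in this table can be a failed estimate. Nothing is read from it, for the tissue isoforms listed at 0 as for Cox4i1.

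Complex V gave 0 higher and 4 lower calls among 16 tested genes (edgeR; 3 higher at an unadjusted p of 0.05, and 1 higher with DESeq2). The lower calls made up 25.0%, near the 21.3% of all genes, while 19.9% of all genes were higher. The median log2 fold change of the 16 genes was 0.16, against 0.02 over all genes. Without BORG-expressing replicate 2 this median was -0.10. Atp5b, the catalytic beta subunit, fell from 920 and 844 to 513 and 559 CPM (-0.72 ± 0.10, edgeR adjusted p = 0.00241), or from 383 ± 34.8 to 238 ± 25.8 FPKM. Its mean FPKM was the highest of all 97 genes in both groups. In BORG-expressing replicate 1, however, Cox6c (272 FPKM) and Cox6a1 (262 FPKM) lay above Atp5b (256 FPKM). Atp5a1, the alpha subunit, fell from 614 and 648 to 505 and 491 CPM (-0.34 ± 0.09, edgeR adjusted p = 0.0265). Atp5f1, of the peripheral stalk, fell from 193 and 194 to 151 and 144 CPM (-0.39 ± 0.10, edgeR adjusted p = 0.0201). The calls of Atp5a1 and Atp5f1 were each lost without parental replicate 1 (-0.43 and -0.44), without parental replicate 2 (-0.32 and -0.41) and without BORG-expressing replicate 2 (-0.32 and -0.36). The gamma, delta and epsilon genes of the central stalk, Atp5c1 (0.39 ± 0.13), Atp5d (0.21 ± 0.19) and Atp5e (0.46 ± 0.17), did not pass. The absence of higher calls depended on the fit. It held in the limma fits on FPKM, with the replicate block and without parental replicate 2. Atp5c1 was called higher with DESeq2 and without BORG-expressing replicate 2, Atp5e with no filter on low counts and without parental replicate 1, Atp5e and Atp5mpl without BORG-expressing replicate 1, and Atp5c1 and Atp5mpl among genes of at least 5 FPKM. Quantile normalization with limma called Atp5c1, Atp5e and Atp5mpl higher, as did the GC and length correction with the replicate block, and that correction alone added Atp5g3.

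Atp5g1, Atp5g2 and Atp5g3 encode the same mature c subunit, which forms the rotor ring. Atp5g3 was the main one, with 153 and 138 FPKM in parental and 182 and 155 in BORG-expressing libraries (log2 fold change 0.18 ± 0.13, edgeR adjusted p = 0.303). Atp5g1 was low, at 5.19 and 5.72 against 3.60 and 2.25 FPKM, and fell (-1.19 ± 0.24, edgeR adjusted p = 0.00940). A near-identical gene, Gm10039, held 2056 fragments over the 4 libraries, more than Atp5g1 itself, and with both added together the log2 fold change was -1.09. Atp5g2 had 0 to 5 fragments per library and was not tested. Atp5l, a membrane subunit, had 1 to 28 fragments per library and 9 near-identical genes holding 1079 fragments, so its level is uncertain.

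**Figure D4:**
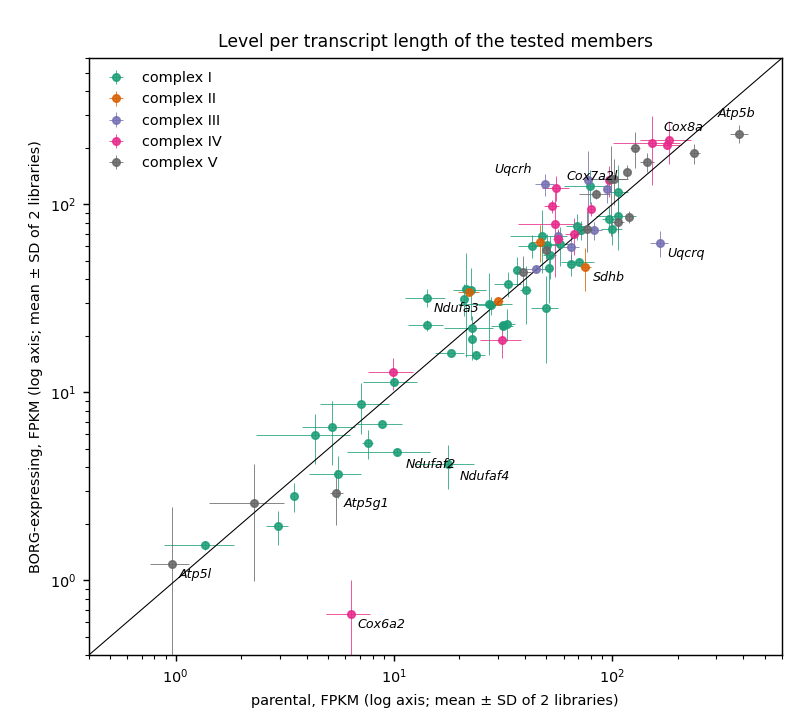
Mean FPKM (± SD of 2 libraries, log axes) of the 86 tested genes in parental (horizontal) and BORG-expressing cells (vertical), coloured by complex; the line marks equal levels. Most genes lie along the line, with Cox6a2, Ndufaf4 and Uqcrq below it and Uqcrh and Cox7a2l above it.

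Summed over each complex, the CPM of complexes IV and V moved in opposite directions. Complex IV genes summed to 593 and 532 CPM in parental and 691 and 761 in BORG-expressing libraries. That sum counts Cox4i1 at 0 and includes the supercomplex factor Cox7a2l, with 55.9 and 60.4 against 132 and 124 CPM. Complex V genes summed to 2380 and 2266 against 1841 and 1910 CPM, of which Atp5b and Atp5a1 made up the greater part. Complex I summed to 1607 and 1475 against 1298 and 1379 CPM, while complex II (298 and 297 against 298 and 292) and complex III (568 and 524 against 539 and 568) overlapped. The sums were not tested. In FPKM, which weighs short genes more, complex V overlapped (1716 and 1680 against 1856 and 1501), as did complex I (1713 and 1580 against 1867 and 1439). Complex IV remained higher (1025 and 1026 against 1487 and 1188). Its FPKM sum includes the processed pseudogene Cox6c2, with 42.4 and 67.7 against 106 and 52.2 FPKM.

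**Figure D5:**
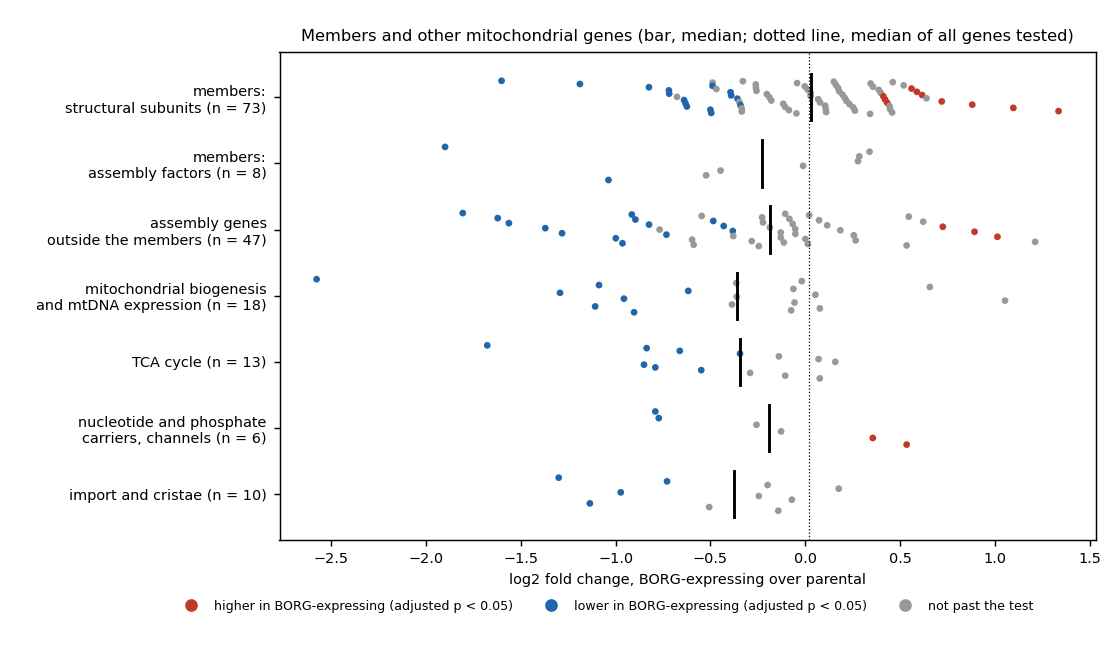
Log2 fold change (BORG-expressing over parental) of the tested respiratory chain genes and of other mitochondrial gene lists, 1 dot per gene, with the list median as a bar and the median of all genes tested as a dotted line. The TCA cycle, biogenesis and import lists hold blue dots (lower) and no red ones.

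Genes that work with the respiratory chain were read against the same background, 19.9% of all genes higher and 21.3% lower. Cytochrome c1 (Cyc1), the nuclear catalytic subunit of complex III that the name rule misses, fell from 80.0 and 72.7 to 40.4 and 53.6 CPM (-0.69 ± 0.16, edgeR adjusted p = 0.0149). Cytochrome c (Cycs) fell from 7.14 and 12.3 to 3.91 and 2.88 CPM (-1.57 ± 0.34, edgeR adjusted p = 0.0126). Its BORG-expressing values rest on 31 and 79 fragments, against 170 and 374 in the parental libraries. Near-identical genes were searched for members only, so not for Cycs. Among 47 assembly genes outside the name rule 3 rose (6.38%) and 14 fell (29.8%), with a median log2 fold change of -0.19. Lrpprc, which stabilises mitochondrial messenger RNAs, fell from 126 and 143 to 54.3 and 50.1 CPM (-1.37 ± 0.12), and Tmem126a, a complex I assembly protein, fell by 1.62 ± 0.19. Atpaf2, an assembly factor of the ATP synthase head, fell by 0.96 ± 0.13, and Higd2a, a complex IV assembly and supercomplex factor, rose by 1.01 ± 0.15.

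Regulators of mitochondrial biogenesis and mitochondrial DNA expression had 0 higher and 7 lower calls (38.9%) among 18 genes, a median of -0.36. Nrf1 fell from 79.9 and 77.9 to 38.6 and 42.5 CPM (-0.96 ± 0.11, edgeR adjusted p = 0.00121). The coactivator Pprc1 fell by 0.90 ± 0.14 and Tfam, which packages mitochondrial DNA, by 0.62 ± 0.14. The transcription elongation factor Tefm fell by 1.29 ± 0.23 and the ribosomal RNA methyltransferase Tfb1m by 2.58 ± 0.44. The BORG-expressing values of Tfb1m rest on 3 and 15 fragments, against 81 and 76 in the parental libraries. Ppargc1a (0.294 and 0.660 against 1.26 and 0.838 CPM), Ppargc1b (-0.39 ± 0.47) and Esrra (0.05 ± 0.15) did not pass. Leaving out parental replicate 2 ended the call of Tfam (-0.53).

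The TCA cycle list had 0 higher and 7 lower calls (53.8%) among 13 genes, a median of -0.34. Dld, the shared dihydrolipoamide dehydrogenase, fell from 305 and 364 to 113 and 97.3 CPM (-1.68 ± 0.14, edgeR adjusted p = 0.000350). Dlst of the 2-oxoglutarate dehydrogenase complex fell by 0.85 ± 0.10, fumarase (Fh1), the enzyme after complex II, by 0.84 ± 0.12 and Mdh2 by 0.79 ± 0.12. Of 6 carriers and channels 2 rose and 2 fell (33.3% each). The ADP/ATP carriers moved apart, Slc25a4 up by 0.36 ± 0.10 (165 and 158 against 206 and 207 CPM) and Slc25a5 down (-0.79 ± 0.11), as did the outer membrane channels Vdac1 (0.53 ± 0.10) and Vdac3 (-0.77 ± 0.12). The call of Slc25a4 was lost without any 1 of the 4 libraries (0.31 to 0.35), and that of Vdac1 without parental replicate 1 (0.46). In the TCA, biogenesis and import lists 0 genes were higher at an unadjusted p of 0.05 in edgeR or with DESeq2. Of 10 import and cristae genes 0 rose and 4 fell (40.0%): Tomm40 (-1.30 ± 0.19), Timm50 (-1.14 ± 0.19), Tomm70a (-0.97 ± 0.13) and Immt (-0.73 ± 0.11).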

How the data were processed

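Total RNA from 2 parental and 2 BORG-expressing D2.OR cultures was sequenced. Per the submitters' processing notes FastQC, Trim Galore, TopHat and Cufflinks were used, with no version, and builds GRCm38, mm10 and mm8 are listed. Strand setting, annotation release and the division of reads that match several genes: not given in the sources used here. Per the file headers, the table deposited by the authors gives estimated counts of fragments and FPKM per gene and library, in the layout of a Cuffdiff read group table; 2 further columns of scaled fragments were not used. Its conditions are BORG and Empty. Empty was read as parental, and replicates numbered from 0 were read as replicates 1 and 2.

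Symbols came from GENCODE M21 (48051 of 48432 identifiers matched, 381 did not), and 23572 identifiers had no fragment. R 4.3.3 was used. The estimated counts were rounded, filtered with filterByExpr, scaled by TMM factors (also used for CPM) and tested with the two-sided quasi-likelihood test of edgeR 4.0.16, with Benjamini-Hochberg adjustment over 15116 genes and a threshold of 0.05. The standard error is the absolute log2 fold change over the root of the F statistic. The biological coefficient of variation was 0.168. The fit was also run on simulated counts, and the outcome of that run is not given here. Alternatives used DESeq2 1.42.0, limma 3.58.1 on log2(FPKM + 1) and log2(FPKM + 0.1), quantile normalization, other filters, a GC and length correction, the replicate number as a block and leaving out each library, where the lone library of a group is assumed to vary like those of the other. Near-identical genes were found with BLAST 2.17.0 (at least 95% identity over at least 150 nt and a share of 0.5 of the shorter transcript). Of the 97 members 27 have one. Genes on the same strand overlap 13 members, and genes on the opposite strand 33. Counts of such genes are uncertain.

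Members, roles, lists and markers were chosen with earlier results of these data known, so no list count is independent support. Values per library are given for the called members (mean of at least 1 FPKM) at either end of the log2 fold changes, 10 each, the 4 with the smallest p per complex, all Sdh genes and isoform pairs. From other lists, the 4 genes with the smallest p and Cyc1, Cycs, Ppargc1a, Ppargc1b, Nrf1, Tfam and Esrra are given. Any member may be named, but 1 result is not reported here.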

Additional observations from a re-analysis of the deposited data

How the results depend on the processing

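Members called higher numbered 11 and lower 18 in the reported fit, and DESeq2 gave 11 and 20. Limma on log2(FPKM + 1) called 4 higher and 3 lower (all genes 1430 and 1759), and on log2(FPKM + 0.1) 4 and 4 (1492 and 1818). A mean of at least 5 FPKM gave 17 higher and quantile normalization 19. Correcting for GC and length gave 20 higher, and 17 when combined with the replicate block. Of the 48 tested members that overlap no other gene 8 were higher and 8 lower (16.7% each), so lower calls did not outnumber higher ones there. Same-numbered libraries did not deviate together (correlation of deviations -0.441), so the numbers were not taken to pair the samples. With the replicate block 6 members were higher and 9 lower (all genes 1986 and 2204), and with the crossed block, chosen after seeing the data, 26 and 27 (4619 and 4700). Adding near-identical copies, also chosen after seeing the data, gave 11 and 18. Leaving out 1 library at a time gave 7 to 14 higher and 11 to 17 lower members, and 2198 to 2785 and 2545 to 3120 over all genes. The members' median log2 fold change ranged from -0.128 (without BORG-expressing replicate 2) to 0.0570 over these, reached 0.0916 among genes of at least 5 FPKM and was 0.156 for members overlapping no other gene. The cause of these differences was not tested.

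Genes near 0 that did not pass changed sign. Ndufa4 was 0.0413 among genes of at least 5 FPKM, 0.0364 and 0.0367 in the limma fits with a pseudocount of 1 and 0.1, 0.0527 with quantile normalization, 0.0968 with the GC and length correction and 0.0752 with it and the block. Esrra was -0.0696 with that correction and -0.0673 with it and the block, and Cox8a was -0.00407 with both. Without 1 library at a time Ndufa4 ranged from -0.21 to 0.15, Esrra from -0.16 to 0.21, Cox8a from -0.40 to 0.53, Sdha from -0.0133 to 0.0857, Cox6a1 from -0.17 to 0.37 and Ppargc1b from -1.37 to 0.0584.

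With 7900769 fragments in the shallowest library, genes of few fragments, such as Cox6a2 (3 there) and Atp5l (1 there), have wide errors, and 11 members were too low to test.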
